A study of Mus musculus with 4 samples.

Results

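The cells described here were chosen by their UMIs, the counted RNA molecules of a single cell. Each had 3 or more UMIs of Acan and 3 or more of Matn1, at most 1 summed UMI of Gdf10 and Cytl1, 0 of Ihh, Panx3 and Col10a1 together, and at most 1 of Gdf5. Of 44320 kept cells in 4 libraries, 773 met every clause and are called members. Because these 8 genes chose the cells, their levels describe the choice and are no finding.

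The study asked how glucose uptake bears on the formation of the mouse knee joint, and profiled dissected hindlimb knee regions by droplet sequencing of the 3′ ends of RNA. The tissue was digested with collagenase, and how many embryos went into a library is not given in the sources used here. Each condition was 1 library. Both control libraries, at E13.5 and at E14.5, are titled WT, and the study describes its controls at E14.5 as without Cre. The other libraries, both at E14.5, carry Prx1Cre with floxed Glut1 on both alleles. In one, labelled Glut3f/+, Glut3 is floxed on 1 allele, and in the other, labelled DCKO, on both. Prx1Cre is active in limb mesenchyme, from which cartilage, perichondrium and joint tissue derive. Glut1 and Glut3 are the proteins of Slc2a1 and Slc2a3.

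The files held 12769 barcodes in the E13.5 control, 9707 in the E14.5 control, 11690 in the library labelled Glut3f/+ and 11602 in the library labelled DCKO. Their total UMIs were 100344565, 84188147, 97110697 and 91574038 in that order, which also holds wherever 4 values follow each other. The filters kept 12446, 9305, 11264 and 11305 cells. Pairs of libraries shared 25 to 40 barcodes, and 0 members had a shared barcode. Levels are given as CPM, the summed UMIs of a gene in the cells of a class scaled to the total UMIs of that class. They count 3′ ends and were not divided by transcript length, so each gene is compared only with itself. With 1 library per condition there is no replicate check, and every interval below covers counting error only.

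Several measurements set the libraries apart before any comparison is read. Slc2a1, labelled as floxed in the libraries with Cre, stood in the members at 89.9, 83.9, 803 and 737 CPM. The libraries labelled as deleted therefore held more of its UMIs than the controls. These libraries are called by their labels, or together the Cre-labelled libraries, throughout. Which part of the gene is floxed is not stated in the sources used here, and 3′ UMIs can lie outside it, so these UMIs check the genotype in neither direction. Slc2a3 was near its floor, with 0, 4.14, 7.14 and 6.15 CPM. In the library labelled DCKO 70.6% of its UMIs came from 1 cell. Xist, the RNA of the inactive X chromosome, was found in 64.4% of members of the E13.5 control, 0% of the E14.5 control, 97.2% in the library labelled Glut3f/+ and 95.015% in the library labelled DCKO. Y-linked UMIs were found in 30.1%, 63.6%, 0% and 0%. Sex therefore differs with genotype at E14.5 and cannot be told apart from it. Hemoglobin and other erythroid genes summed to 5275 CPM in members of the E14.5 control, against 89.9, 63.4 and 38.0 in the others, and 98.7% of that sum came from 1 barcode. Without that barcode the sum was 69.4 CPM.

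As background, limb cartilage is laid down by chondrocytes whose matrix is a mesh of type II, IX and XI collagen filled with aggrecan, the large proteoglycan made from Acan. Matrilins, among them the products of Matn1 and Matn3, connect collagen fibrils with other matrix molecules. As cartilage grows, cells in the middle of the shaft leave the cell cycle and turn prehypertrophic, with Ihh and then Col10a1, while cells at the ends of the element stay round, and the interzone, marked by Gdf5, forms the joint between elements. Cytl1 encodes a secreted protein of chondrocytes and Gdf10 a secreted protein of the BMP family.

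Members became more frequent from library to library. They were 73 cells in the E13.5 control, 110 in the E14.5 control, 249 in the library labelled Glut3f/+ and 341 in the library labelled DCKO. As shares of kept cells these were 0.587% (Clopper-Pearson 95% interval 0.460 to 0.737), 1.18% (0.973 to 1.42), 2.21% (1.95 to 2.50) and 3.02% (2.71 to 3.35). No neighbouring pair of these intervals overlapped, but they count cells of 1 library each and say nothing of the spread between embryos. The order of the libraries by share of kept cells was the same under every other setting that gave all 4 shares.

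At E14.5 the clause on Gdf10 and Cytl1, applied last, left out the most Acan/Matn1 cells. At E13.5 the clause on Ihh, Panx3 and Col10a1 left out more, from 1126 cells to 471. Cells with 3 or more UMIs of both Acan and Matn1 were 9.05%, 42.0%, 35.5% and 40.4% of kept cells, so the E14.5 control had at least as large a share of them as the Cre-labelled libraries. After the clauses on Ihh, Panx3 and Col10a1 and on Gdf5, 448, 3268, 3142 and 3531 of them were left. Members were 16.3% of those (12.995 to 20.047), 3.37% (2.77 to 4.04), 7.92% (7.004 to 8.925) and 9.66% (8.70 to 10.7). Among these cells the median of summed Gdf10 and Cytl1 was 4 UMIs in the E13.5 control, 11 in the E14.5 control, 8 in the library labelled Glut3f/+ and 7 in the library labelled DCKO. The share of them with over 10 such UMIs was 12.3%, 53.6%, 40.2% and 29.4%. The share and the median come from the same UMIs, so they are 2 views of 1 distribution.

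**Figure D1:**
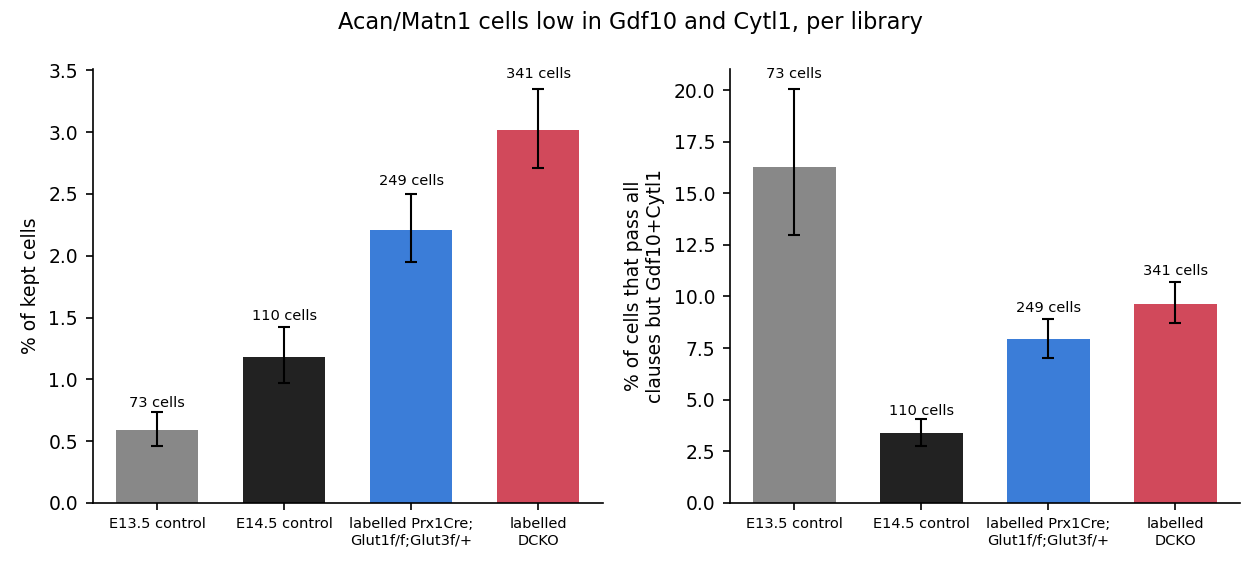
Members in the 4 libraries, as percent of kept cells (left) and as percent of cells that met every clause but that on Gdf10 and Cytl1 (right). Bars are shares, error bars are Clopper-Pearson 95% intervals and the numbers above are member cells; on the left the bars climb from 0.587% to 3.02%, and on the right the E14.5 control is lowest at 3.37%.

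Cells near the thresholds were many, so members are a range and not a separate group. Of the members, 27, 36, 99 and 139 had 0 UMIs of Gdf10 and Cytl1 and 46, 74, 150 and 202 had 1, while 61, 119, 199 and 242 cells just outside had 2. Across that edge, at 0, 1 and 2 UMIs, Col9a1, a collagen IX chain, held 873, 719 and 839 CPM in the E13.5 control and 1343, 1351 and 1279.7 in the E14.5 control. It held 816, 924 and 1047.5 in the library labelled Glut3f/+ and 908, 1117 and 1177 in the library labelled DCKO, a climb seen in these libraries only. Matn3 climbed in the E14.5 control too, with 78.0, 95.7 and 109 CPM. Members with exactly 3 UMIs of Acan were 23, 13, 25 and 58, and 34, 19, 43 and 45 cells just outside had 2. For Matn1 the members at 3 were 15, 7, 26 and 38, and cells at 2 were 11, 8, 27 and 58. A single UMI of Ihh, Panx3 or Col10a1 kept 18, 21, 28 and 62 further cells out. Gdf5 of 1 was held by 7, 4, 10 and 11 members, and 0, 2, 0 and 5 cells had 2.

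Depth moves a rule made of UMI counts. Median UMIs per member were 7022, 8177, 8853 and 7445. When every cell was thinned to 3000 UMIs first, and 1518, 861, 1167 and 1415 shallower cells were left out, 75, 409, 630 and 809 cells met the rule. They were 0.686%, 4.84%, 6.24% and 8.18% of cells, in the same order of libraries. Only 21.3%, 10.3%, 14.4% and 16.9% of these had been members at full depth, and 29, 260, 373 and 449 of them had held 2 or more UMIs of Gdf10 and Cytl1. Membership thus depends on depth, and how many members at full depth had such RNA that went uncounted was not tested.

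RNA from broken cells adds UMIs to any droplet, so the rule was also read in cells that should make no cartilage. Endothelial cells, 62, 52, 131 and 90 of them with median UMIs of 8761.5, 6886, 7914 and 6702, had 3 or more Acan UMIs in 1.61%, 5.77%, 7.63% and 3.33% of cells. They had 3 or more Matn1 UMIs in 3.23%, 5.77%, 4.58% and 4.44%, and 0 were members. For muscle cells the shares were 2.58%, 7.65%, 10.3% and 4% for Acan and 2.10%, 5.10%, 9.23% and 6.67% for Matn1, and for macrophages 3.03%, 9.52%, 2.47% and 7.35% and 3.03%, 7.94%, 3.70% and 8.82%. Both genes reached 3 UMIs in 24 of 271 muscle cells of the library labelled Glut3f/+. Muscle cells were members in 1, 0, 2 and 0 cases and macrophages in 0, 0, 0 and 2. Members with fewer UMIs than 1000 occurred, the smallest holding 4343, 638, 1914 and 725.

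The working name of these cells was matrix-rich chondrocytes before prehypertrophy, with Acan, Matn1, Matn3 and Col9a1 as markers. The markers used in the rule were high by choice. Matn3 (ENSMUSG00000020583, chr12:8947929-8972028 on the plus strand of GRCm38), which the rule did not use, stood at 59.4, 90.1, 41.1 and 47.8 CPM in members. Col9a1 (ENSMUSG00000026147, chr1:24177610-24252684, plus strand) stood at 777, 1348, 882 and 1031 CPM. Acan (ENSMUSG00000030607, chr7:79053483-79115099, plus strand) had 600.0, 1058.3, 944 and 1040.2 CPM, and Matn1 (ENSMUSG00000040533, chr4:130944385-130955475, plus strand) had 1148, 2556, 1195 and 1561. Acan, Matn1 and Col9a1 were lowest in the E13.5 control, and Matn3 in the library labelled Glut3f/+.

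Beside their nearest neighbours the members were not rich in matrix RNA. The neighbours were made by turning 1 clause of the rule. Cells with 2 or more UMIs of Gdf10 and Cytl1, called Gdf10/Cytl1-positive, were 375, 3158, 2893 and 3190. Cells with 2 or more UMIs of Ihh, Panx3 and Col10a1 were 79, 48, 82 and 185, and cells with Matn1 of 1 or less, called Matn1-low, were 104, 136, 228 and 231. Matn3 was 76.8, 137, 90.0 and 80.1 CPM in Gdf10/Cytl1-positive cells and 135, 212, 149.99 and 89.9 in Ihh/Panx3/Col10a1-positive cells, above the members in every library. In Matn1-low cells it was 11.2, 8.49, 10.973 and 8.09. The 7 cartilage collagen genes (Col2a1, Col9a1, Col9a2, Col9a3, Col11a1, Col11a2 and Col27a1) summed to 8647, 17493, 11326 and 11754 CPM in members. In Gdf10/Cytl1-positive cells the sum was 9222, 16556, 14967 and 13496, below that of members in the E14.5 control only, and in Ihh/Panx3/Col10a1-positive cells 13723, 20185, 18973 and 16573. Only Matn1-low cells had less in every library, with 5044, 5459, 6592 and 7222. The name is therefore not used further, and the members are described as Acan/Matn1 cells low in Gdf10 and Cytl1.

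**Figure D2:**
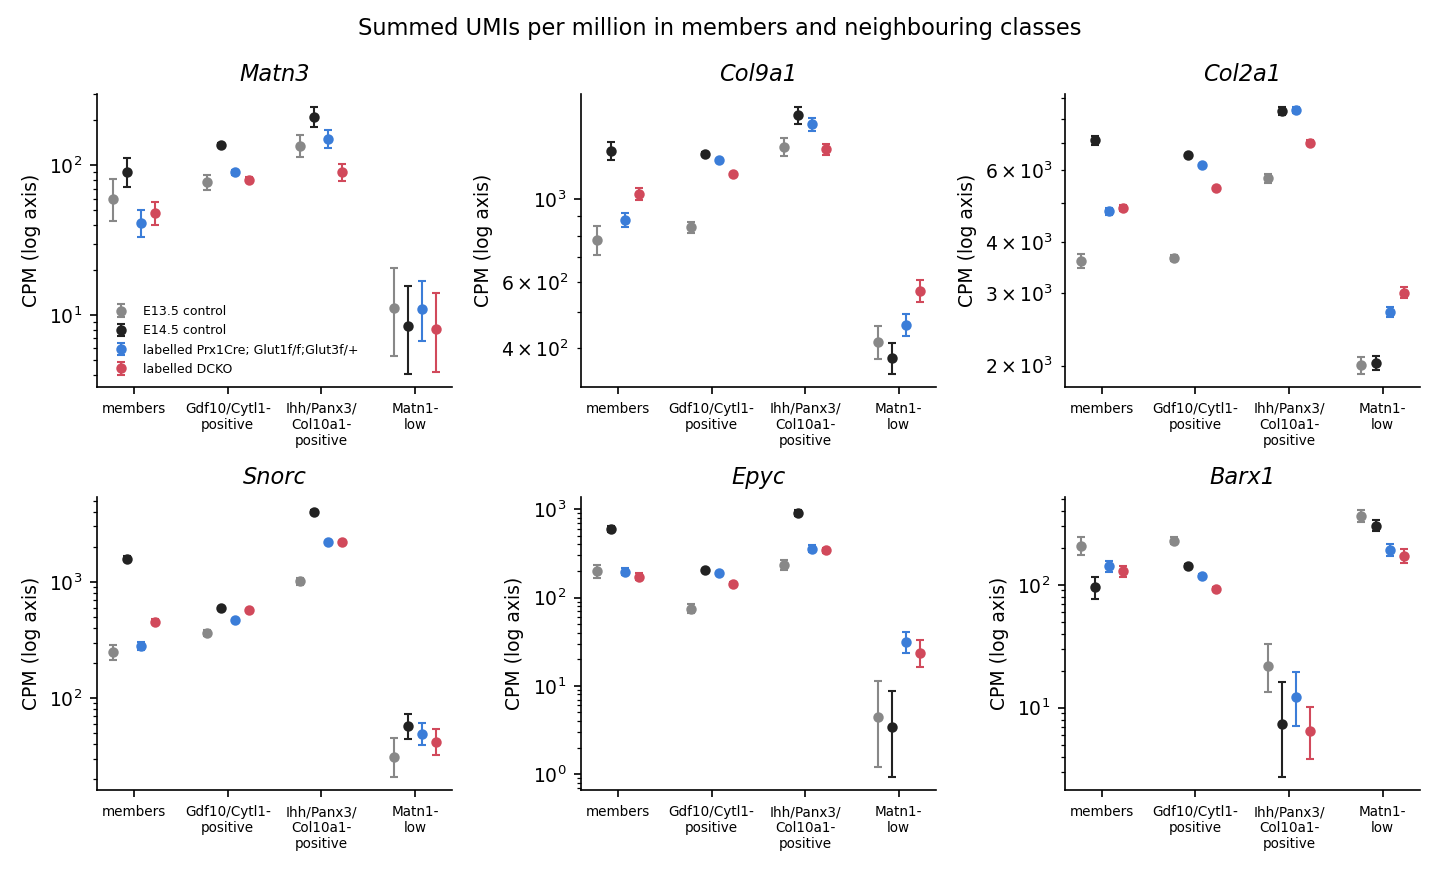
Summed UMIs scaled to the total of the class (CPM, log axis) of Matn3, Col9a1, Col2a1, Snorc, Epyc and Barx1 in members and 3 neighbouring classes, with 1 colour per library and Poisson 95% intervals of counting error. Matn3 and Snorc of members lie under those of Ihh/Panx3/Col10a1-positive cells in each library. Among members Snorc is highest in the E14.5 control (1575 CPM), and Barx1 is lowest in Ihh/Panx3/Col10a1-positive cells.

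Members and Gdf10/Cytl1-positive cells were close to each other. A gene is counted here as past 1.5-fold when it differed by at least that much, the same way, in all 4 libraries, at a mean of 20 CPM or more. Because the rule itself made this contrast, the counts are given as a description. Of 5605 genes, 1 was higher in members (0.0178% of those tested) and 8 were lower (0.143%). The gene higher in members was Nog, which encodes noggin, a secreted inhibitor of BMP proteins. It had 239, 148, 252 and 151.7 CPM in members and 142, 70.7, 88.2 and 62.4 in Gdf10/Cytl1-positive cells, the log2 ratios being 0.75, 1.07, 1.52 and 1.28. The lower genes at 50 CPM or more included Cytl1 and Gdf10 themselves and Fxyd3, which encodes a regulator of the sodium pump. Fxyd3 had 36.5, 42.5, 18.5 and 47.4 CPM in members against 61.9, 85.7, 77.2 and 94.7. Over the genes of a library, the Pearson correlation of log2 CPM between the 2 classes was 0.965, 0.967, 0.976 and 0.980, where genes are not independent replicates.

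Some genes were past 1.5-fold higher in members than in these neighbours in 1 or both controls but not in the Cre-labelled libraries. Snorc, a cartilage transmembrane proteoglycan, was lower in members than in Gdf10/Cytl1-positive cells in 3 libraries, by log2 ratios of -0.55 at E13.5, -0.73 for the label Glut3f/+ and -0.32 for the label DCKO. In the E14.5 control its summed level was higher, at 1.41, with 1575 CPM against 593. Among cells of that library thinned to 4000 UMIs, however, 60% of members and 61.6% of Gdf10/Cytl1-positive cells held a Snorc UMI. The means were 5.51 and 2.15 UMIs per cell. The difference thus lay in UMIs per cell and not in a larger share of members with Snorc. C1qtnf3, a secreted protein of cartilage, had ratios of 1.45 and 1.41 in the controls and -0.52 and -0.66 in the Cre-labelled libraries. Epyc, a small leucine-rich proteoglycan of growing cartilage, had 1.40, 1.53, 0.05 and 0.26. Only in these genes, named because they show it, is this difference described for the E14.5 control, the library to which all others are compared below. Whether it holds over all genes was not tested. Ihh/Panx3/Col10a1-positive cells held more Snorc than members in every library, at log2 ratios of -2.03, -1.34, -2.96 and -2.26. In the E14.5 control they also held more C1qtnf3 (-1.60) and Epyc (-0.59).

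Against Ihh/Panx3/Col10a1-positive cells the members held more Barx1, Vcan and Pitx1 and less RNA of several prehypertrophic genes. Of 5435 genes, 207 were higher in members (3.81%) and 122 lower (2.24%), again in a contrast that the rule made. Barx1, a homeobox gene of developing joints, had 207, 95.3, 141 and 129 CPM in members and 21.7, 7.42, 12.2 and 6.47 in these neighbours. Its log2 ratios were 3.26, 3.68, 3.53 and 4.32. Vcan, the proteoglycan versican of early limb mesenchyme, was at 2.29, 3.63, 2.58 and 3.68, and Pitx1, the hindlimb identity factor, at 1.63, 2.02, 2.02 and 2.07. The 10 highest also held Nfib, Lrig3, Gas1, Tcf4, Mfap4, Col3a1 and 6330403K07Rik.

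On the other side, Smpd3, a sphingomyelinase needed for cartilage mineralization, had 4.57, 6.21, 2.10 and 9.41 CPM in members and 263, 259, 312 and 277 in the Ihh/Panx3/Col10a1-positive cells. Wnt4, a signal of joint and prehypertrophic cartilage, had 56.3, 22.8, 46.6 and 61.2 against 274, 187, 254 and 267. Comp, the cartilage oligomeric matrix protein, had 47.2, 125, 80.2 and 118 against 337, 555, 760.0 and 869.9. Sgms2, Tnni1, Prkg2 and Lgmn completed the 10 lowest beside the rule's own Ihh, Panx3 and Col10a1. Without the rule's own Ihh, Panx3 and Col10a1, the list of prehypertrophic and hypertrophic genes had 5 of 8 tested genes lower and 1 higher at a median log2 ratio of -2.18, beside 0.05 over all tested genes. Genes that go along with Ihh or Col10a1 were chosen indirectly by the rule, so this too describes the choice. These neighbours held more UMIs per cell, with medians of 11780, 16410, 17400 and 14773.

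Against Matn1-low cells the members held more RNA of a number of cartilage genes and less of the interzone list. Of the cartilage collagens 4 of 7 were higher and 0 lower, and of the matrix proteins without Acan and Matn1 8 of 16 were higher and 0 lower. Small leucine-rich proteoglycans had 2 of 8 higher and 2 lower (median -0.45), fibroblast genes 2 of 6 lower (-1.07) and tendon genes 2 of 2 lower (-2.09). The Matn1 clause made this contrast as well, so that the ratio of Matn1 and of genes that go along with it was fixed by the choice. Of 5704 genes, 44 were higher (0.771%) and 116 lower (2.03%). Hapln1, the link protein that ties aggrecan to hyaluronan, had 483, 942, 669.5 and 797 CPM in members and 95.001, 222, 285 and 329.5 in Matn1-low cells. Epyc had log2 ratios of 5.47, 7.46, 2.65 and 2.87, and Snorc 2.98, 4.79, 2.51 and 3.44. Beside Matn1 itself, C1qtnf3, Lgals3, Comp, Cmtm5, Tubb2b and S100b were the other high genes. Creb5, a factor of the articular surface, had 42.6, 15.5, 16.4 and 17.4 CPM in members against 212, 154, 91.6 and 85.6. Sfrp2, a secreted Wnt modulator, had 139, 91.1, 143 and 73.1 against 489.5, 639, 314 and 228. Sulf1, Htra1, Gas1, Postn, Foxp1, Sox4, Col12a1 and Igfbp7 were the other low genes. Of 6 tested genes of the interzone list, 4 were lower, and their median was -1.38 beside -0.07 over all tested genes.

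The tissue is labelled interzone, and the rule kept only cells with almost no Gdf5, the gene that defines it. By that choice Gdf5 was at 10.7, 4.14, 4.20 and 3.98 CPM. The interzone list of 8 genes, all of them detected, summed to 468, 259, 306 and 258.5 CPM in members, with Sfrp2 the most abundant, and to 1256, 1287, 767 and 552 in Matn1-low cells.

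Genes that varied most among members included several of cell division. Variation was measured as the variance over the mean of UMIs (the Fano factor) in members thinned to 4000 UMIs. There were 73, 95, 234 and 314 of these, and shallower members were left out. The median Fano factor over 3706 genes was 1.05, 1.05, 1.06 and 1.07. The highest in the lowest library was Malat1, an abundant nuclear RNA, at 11.8. Next came Hmgb2 at 5.28, Ube2c at 4.85, Itm2a at 4.48 and Hist1h1b at 4.32, then Gm42418 at 3.90, H2afz at 3.74, Dlk1 at 3.73, Fos at 3.65 and Top2a at 3.49. Hmgb2, Ube2c, Hist1h1b and Top2a have known roles in dividing cells, and whether such genes were more frequent here than among all genes was not tested. At least 10 UMIs of the 24 genes of the G2M list were held by 38.4%, 28.4%, 15.4% and 22.6% of the thinned members. Members rich in G2M RNA thus stood beside members poor in it in each library, with the largest share in the E13.5 control. Snorc varied most in the E14.5 control, with Fano factors of 2.92, 10.3, 3.63 and 4.93.

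The 20 most abundant genes held 9.22%, 11.7%, 14.1% and 13.9% of the members' UMIs. Malat1 came first with 7330 (7329.7), 9547, 14977 and 11285 CPM, and nearly all others encode ribosomal proteins, with Col2a1 among them.

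With age, the members held more matrix RNA and less RNA of S phase genes. Between the E13.5 and the E14.5 control, a gene is called past 1.5-fold when its ratio of CPM is at least that, its exact conditional 95% interval does not reach 1 and its mean is 20 CPM or more. A gene can reach that mean only through the library where it is high. Counts and medians of lists are tilted toward a change by this, here and below. Of 5787 tested genes, 294 were higher at E14.5 (5.08%) and 620 lower (10.7%). Snorc had 247 CPM at E13.5 and 1575 at E14.5, a log2 ratio of 2.67 (2.44 to 2.92). The Cre-labelled libraries of the same age had 280.4 and 455 CPM, the latter past 1.5-fold above the E13.5 control, and both were far below the E14.5 control. In members thinned to 4000 UMIs, a Snorc UMI was held by 43.8%, 60%, 41.5% and 41.7% of cells. The means were 1.04, 5.51, 1.07 and 1.53 UMIs per cell, so the libraries differed more in these means than in the shares. C1qtnf3 had 48.7, 332, 34.0 and 16.3 CPM, with an age ratio of 2.77 (2.24 to 3.34), and was high in the E14.5 control alone.

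The other 8 of the 10 highest genes are given with all 4 libraries. Ecrg4, a secreted peptide of articular chondrocytes, had 9.14, 183, 68.8 and 71.3 CPM, a ratio of 4.33 (3.18 to 5.79) between the controls. S100b, a calcium-binding protein of chondrocytes, had 13.7, 154, 85.2 and 64.4 (ratio 3.49). Lgals3, the lectin galectin-3, had 57.9, 236, 199 and 377 (2.03), and Penk, the proenkephalin gene, 22.8, 109, 51.6 and 50.7 (2.25). Ndufa4l2, which encodes a hypoxia-induced subunit-like protein of the mitochondrion, had 18.3, 91.1, 350.1 and 156 (2.32). Neat1, a nuclear RNA, had 62.4, 234, 146 and 247 (1.91). Col1a1, the type I collagen of bone and connective tissue, had 134, 700.0, 178 and 173 (2.38) and was high in the E14.5 control alone, where 27.5% of its UMIs came from 1 cell. The last of the 10, Gmcl1, was at 18.3, 86.0, 20.1 and 38.0, with 77.1% of its UMIs in the E14.5 control from 1 cell. Its age ratio of 2.23 was 0.29 without barcodes holding markers of another lineage. In Gdf10/Cytl1-positive cells the age ratios were 5.49 for Ecrg4, 2.81 for C1qtnf3, 2.33 for Ndufa4l2, 2.05 for Lgals3 and 1.91 for S100b. They were 1.47 for Penk, 1.44 for Neat1, 1.38 for Col1a1, 0.71 for Snorc and 0.26 for Gmcl1. The difference from members was not tested.

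The 10 genes lowest at E14.5 were low in all 3 libraries of that age. Among them were replication-dependent histones, with Hist1h2ap at 551, 39.4, 18.5 and 18.5 CPM (log2 ratio -3.81, -4.33 to -3.32) and Hist1h2ae at 203, 52.8, 19.7 and 21.7 (-1.94). The others have varied roles. Nnat, the imprinted gene neuronatin, had 263, 38.3, 46.2 and 48.9 (-2.78). Sox11, a factor of progenitor cells, had 353, 104, 189 and 137 (-1.77), and Mab21l2, a gene of limb and eye primordia, 119, 32.1, 44.1 and 31.9 (-1.89). Basp1 and Dbn1, which encode proteins of the cell cortex, had ratios of -1.72 and -1.58. Gm10076 at -2.34, Cpm, a membrane carboxypeptidase, at -2.07 and Erh, a nuclear RNA-processing factor, at -1.85 completed the 10. All 10 were also lower with age in Gdf10/Cytl1-positive cells, from -3.55 for Hist1h2ap to -1.03 for Mab21l2.

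By list, the cartilage collagens had 6 of 7 tested genes higher and a median of 0.98, beside -0.14 over all tested genes. Col2a1, the main fibril collagen of cartilage, had 3606, 7102, 4765 and 4855 CPM. Col9a3 had 1701, 3873, 2014 and 2219, Col11a1 1221, 2714, 2203 and 2112, and Col11a2 365.5, 833, 482 and 506. Other cartilage matrix proteins, without the rule's Acan and Matn1, had 12 of 16 higher and 0 lower (median 1.12), among them Mia with 1058.4, 2381, 1406 and 1162.5 CPM and Scrg1 with 79.2, 284, 137 and 52.9. Small leucine-rich proteoglycans had 5 of 6 higher (median 1.55), with Lum at 126, 308, 152 and 152 and Bgn at 56.3, 160.5, 63.0 and 73.5. Every one of these genes was highest in the E14.5 control.

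Folding and secretion of collagen, the step before the matrix, had 9 of 31 tested genes higher and 0 lower (median 0.34). Serpinh1, the collagen chaperone Hsp47, had 1325, 1931, 1094 and 1658 CPM and stayed under the fold at 0.54, while Pcolce, a helper of collagen processing, had 102, 206, 107 and 89.4 (1.01). Enzymes of glycosaminoglycan synthesis and sulfation had 1 of 19 higher, Xylt1, which adds the first sugar of the chain, at 54.8, 97.3, 107 and 85.4 (0.83). Their median of 0.18 turned to -0.12 when members were held to 0 UMIs of Gdf10, Cytl1 and Gdf5. Ugdh, which makes the sugar for these chains, had 341, 394.5, 324 and 346.

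Lists of cell types and of cartilage regulation stand beside 5.08% higher and 10.7% lower over all tested genes. The fibroblast list had 5 of 6 tested genes higher (median 1.40) and summed to 874, 2290 (2289.6), 1043.5 and 1007 CPM in members, all 7 of its genes being detected and Col3a1 or Col1a1 the most abundant. The interzone list had 5 of 5 lower (median -1.31), the epiphyseal and articular list, without the rule's genes, 3 of 4 lower (-1.05) and the prehypertrophic list 3 of 5 lower (-0.84). Runx2, a factor of hypertrophy and bone, had 80.7, 35.2, 11.8 and 18.5 CPM (-1.20), and Mef2c, which works with it in the growth plate, 129, 72.5, 172 and 164 (-0.84). Chondrogenic transcription factors had 2 of 19 higher and 6 lower (-0.32), with Sox9, the master factor of cartilage, at 582, 500.2, 445 and 343 and under the fold. Growth plate signalling genes were near the shares of all genes, with 1 of 24 higher and 3 lower (-0.23), and held Ptch1, the receptor and target of hedgehog, at 236, 150.1, 134 and 111 (-0.65).

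Genes of replication were lower in part. The S phase list had 11 of 22 tested genes lower (median -0.64), such as Tyms at 207, 126, 63.8 and 60.1 CPM (-0.71) and Mcm6 at 132, 64.2, 84.4 and 64.4 (-1.05). The G2M list had 3 of 23 lower with a median of -0.35, which was 0.005 after thinning (0.0047792 before rounding). Immediate-early genes, which respond within minutes to stress and handling, had 11 of 17 higher (0.74), with Fos at 934, 1557.5, 888 and 900.0 and Jun at 612, 1296.5, 519.65 and 506.5. Cell cycle inhibitors and cyclin D had 1 of 6 higher, Cdkn1a at 22.8, 51.8, 112 and 134 (1.18), and 1 lower, Ccnd1 at 391, 221, 129 and 121 (-0.83).

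Lists of energy and stress genes had medians on both sides of 0 with age, several of which changed sign under another setting. Glycolysis had 0 of 13 tested genes higher and 3 lower at a median of -0.01, which TMM scaling put at 0.18. The gene that moved most was Eno1 at 634, 235, 244 and 177 CPM (-1.43). Hypoxia (HIF) targets outside glycolysis had 3 of 16 higher (0.36), ATF4 targets 4 of 15 higher (0.22) and genes of the unfolded protein response 3 of 17 higher and 1 lower (-0.29, or 0.06 by the mean of CPM over cells). Cytosolic tRNA synthetases had 1 of 18 higher and 1 lower (-0.05, 0.14 with TMM), the nuclear respiratory chain 0 of 75 either way (-0.08, 0.11 with TMM) and the mitochondrial genome 0 of 13 (-0.15).

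The balance of the age comparison depended on the scaling. TMM factors, which assume that most genes do not change, moved all log2 ratios by 0.19, turned the split of 294 higher and 620 lower genes into 504 and 288, and so raised the higher share from 32.2% to 63.6%. The excess of lower genes stayed with the mean of CPM over cells (404 higher and 614 lower) and without the 20 most abundant genes in the total (335 and 554). In cells that met the rule after thinning to 3000 UMIs, the ratios of Snorc, Epyc, S100b, Neat1 and Cpm were 1.11, 0.69, 1.95, 0.92 and -0.86. Ecrg4 was then at 3.26 and Basp1 at -0.83, while Ndufa4l2 at 4.73 and Dbn1 at -2.34 lay further from 0 than before. With Gdf10, Cytl1 and Gdf5 of 0, Penk was at 0.92, Lgals3 at 1.25 and Sox11 at -0.86. With Acan and Matn1 of 5 or more, Col1a1 was at 1.43. Sex differed between the control libraries as well, so age and sex cannot be told apart.

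In both Cre-labelled libraries the members held less matrix RNA than in the E14.5 control and more RNA of amino acid supply and of hypoxia response. These comparisons share that control library, so a gene that stood out in it moves the same way in both, and the values of all 4 libraries are set side by side. Against the control, the library labelled Glut3f/+ had 192 of 5487 genes higher (3.5%) and 647 lower (11.8%), and the library labelled DCKO had 222 of 5386 higher (4.12%) and 701 lower (13%). Higher in both were 92 genes, 47.9% of the former list and 41.4% of the latter, and lower in both 412, or 63.7% and 58.8%. TMM factors moved the log2 ratios by 0.17 and 0.21 and turned the splits into 398 higher and 358 lower and into 543 and 352, so that the higher share went from 22.9% to 52.6% and from 24.1% to 60.7%. The median over all genes was -0.13 in each, and 0.04 and 0.08 with TMM. By the mean of CPM over cells the splits were 224 and 872 and 241 and 886, and without the 20 most abundant genes in the total 255 and 600 and 283 and 682. The excess of lower genes was thus lost with TMM factors only, and single genes and lists are described by their own size.

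The matrix genes Snorc, Epyc, C1qtnf3 and Col1a1 were among the 10 lowest in both Cre-labelled libraries, while Matn3 and Col9a1 were not. Snorc had log2 ratios of -2.49 (-2.62 to -2.36) for the label Glut3f/+ and -1.79 (-1.90 to -1.68) for the label DCKO. Epyc, with 198, 600 (599.58), 197 and 172 CPM, had -1.61 and -1.80, and C1qtnf3 -3.29 and -4.35. Matn3 had -1.13 and -0.91, and Col9a1 -0.61 and -0.39. For Snorc, Epyc, C1qtnf3 and Matn3 both Cre-labelled libraries lay nearer the E13.5 control, while Col9a1 of the label DCKO lay about midway. Of the genes that chose the cells, Matn1 had ratios of -1.10 and -0.71 and Acan -0.16 and -0.02, which are given only to complete the markers.

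The cartilage collagens had 5 of 7 lower for the label Glut3f/+ (median -0.64) and 4 of 7 for the label DCKO (-0.64), against -0.13 over all tested genes. Other matrix proteins, again without Acan and Matn1, had 9 of 16 lower in each, at -0.70 and -0.79, and small leucine-rich proteoglycans 7 of 7 and 5 of 5, at -1.40 and -1.16. The number of these proteoglycans tested differed between comparisons. Some, such as Prelp for the label Glut3f/+, reached the mean of 20 CPM only through the control, so the filter tilts this count downward. Low genes of these lists were Prelp, a leucine-rich proteoglycan, at 22.8, 72.5, 19.7 and 26.1 CPM, and Chad, a collagen-binding protein of chondrocytes, at 41.1, 146, 63.4 and 65.5. Scrg1 had ratios of -1.05 and -2.42. Collagen folding had 2 of 31 higher and 5 lower (-0.16, 0.01 with TMM) for the label Glut3f/+ and 0 and 5 (-0.30) for the label DCKO, with Serpinh1 at -0.82 and -0.22. Glycosaminoglycan enzymes had 0 of 20 and 0 of 18 past the fold, at -0.13 and -0.17; the latter was 0.04 with TMM and the former 0.12 with members of 0 Gdf10, Cytl1 and Gdf5 UMIs.

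Many of these matrix ratios were smaller in other cells. Thinning to 3000 UMIs before the rule, which changed depth and members at once, brought Snorc to -0.81 and -0.72 and the collagen median for the label Glut3f/+ to -0.28. In Gdf10/Cytl1-positive cells the same comparisons gave Snorc -0.35 and -0.07, Epyc -0.13 and -0.53, C1qtnf3 -1.35 and -2.28, Matn3 -0.61 and -0.78, and a collagen median of -0.08 and -0.31 with 0 of 7 past the fold in either, and the difference from members was not tested.

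Other genes lower in both were of several kinds. Ccn1, a matrix-bound signalling protein, had 155, 296, 75.1 and 69.9 CPM, log2 ratios of -1.98 and -2.08. Socs3, a brake on cytokine signalling, had 117, 154, 46.6 and 47.4 (-1.73 and -1.70), and Gadd45b, a stress and growth arrest gene, 288, 530.2, 196 and 109 (-1.44 and -2.28). Idi1, an enzyme of sterol synthesis, had 83.8, 141, 44.5 and 29.3 (-1.66 and -2.26). Crip1, a small zinc-binding protein, had 104, 321, 89.4 and 117 (-1.84 and -1.46), and Hist1h1e, a linker histone, 99.0, 124, 39.9 and 47.8 (-1.64 and -1.38). Col1a1 had -1.98 and -2.01. After thinning, Idi1 was at -0.47 and -0.69 and Col1a1 at -0.99 and -1.28. For the label Glut3f/+ Ccn1 was then at -1.23, Crip1 at -0.85, Socs3 at -1.23 and Gadd45b at -0.81. For the label DCKO Socs3 was then at -2.09 and Hist1h1e at -1.62, further from 0 than before. The Gdf10/Cytl1-positive cells had Gadd45b at -0.59 and -1.66 and Socs3 at -0.63 and -1.22.

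The glucose transporter Slc2a1 led the higher side together with genes of the integrated stress response. Its log2 ratios were 3.26 (2.94 to 3.60) for the label Glut3f/+ and 3.13 (2.81 to 3.47) for the label DCKO. The Gdf10/Cytl1-positive cells had 2.45 and 2.50. It was the only gene tested of 11 glucose transporters, and it was high in both libraries in which the label says it was deleted.

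The genes of glycolysis were higher in part. Of 15 tested, 4 were past 1.5-fold for the label Glut3f/+ (median 0.48) and 4 of 14 for the label DCKO (0.33), and 0 were lower. Hk2, which traps glucose in the cell, had 73.1, 106, 290.05 and 188 CPM (1.46 and 0.83). Aldoa, an enzyme of the middle of the pathway, had 863, 805, 1523 and 1387 (0.92 and 0.79), and Gapdh 2243, 2326, 3249 and 2865 (0.48 and 0.30). Pfkp had 0, 22.8, 52.0 and 49.2 (1.19 and 1.11). The median for the label Glut3f/+ was 0.24 after thinning.

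HIF targets outside glycolysis stood apart more clearly in the library labelled Glut3f/+. There 15 of 21 were higher (median 0.79), against 7 of 19 higher and 1 lower (0.47) for the label DCKO. Between the controls 16 were tested, and some, such as Car9, reached the mean of 20 CPM only through a Cre-labelled library. The filter therefore tilts these counts and medians upward. Car9, a carbonic anhydrase often used as a hypoxia marker, had 15.2, 6.21, 92.3 and 49.2 CPM. A UMI of Car9 was found in 7 of 73 members, 4 of 110, 111 of 249 and 80 of 341. Shares in Gdf10/Cytl1-positive cells were 5.6%, 8.39%, 21.1% and 14.3%, and in Matn1-low cells 6.73%, 2.94%, 25.9% and 17.7%, so Car9 was more frequent in the Cre-labelled libraries in these classes too. In members thinned to 4000 UMIs the shares were 6.85%, 1.05%, 26.1% and 16.6%, in the same order as the CPM. Higd1a, a hypoxia-induced mitochondrial protein, had 614, 954, 1626 and 1325 CPM (0.77 and 0.47), Fam162a 536, 579.9, 1005 and 685 (0.79 and 0.24) and Vegfa, the vessel growth factor, 50.3, 69.4, 168 and 139 (1.27 and 0.99897). Ndufa4l2 had ratios of 1.94 and 0.77, which were 1.04 and 0.21 after thinning. In Gdf10/Cytl1-positive cells they were 0.67 and -0.02. Bhlhe40 was the gene lower for the label DCKO, at 10.7, 34.2, 21.8 and 9.05 CPM. The E13.5 control was low in most of these genes, as was the E14.5 control.

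Of ATF4 targets, which raise amino acid synthesis and import under stress, most of those tested were higher in each Cre-labelled library. Of 22 tested, 14 were higher and 2 lower for the label Glut3f/+ (median 1.15) and 17 higher and 0 lower for the label DCKO (1.31). Between the controls 15 were tested, and some, such as Nupr1, reached the mean of 20 CPM only through a Cre-labelled library. The filter therefore tilts these counts and medians upward. Asns, asparagine synthetase, had 44.2, 40.4, 191 and 309 CPM, with ratios of 2.24 (1.76 to 2.75) and 2.93 (2.47 to 3.44). Nupr1, a stress-induced chromatin protein, had 0, 4.14, 109 and 168 CPM, where the E14.5 control had 4 UMIs, and ratios of 4.72 (3.35 to 6.61) and 5.34 (3.98 to 7.22). Mthfd2, of mitochondrial folate metabolism, had 94.4, 74.6, 211 and 288 (1.4988 and 1.95). Atf5, a factor of the same pathway, had 21.3, 23.8, 88.6 and 101 (1.89 and 2.09) and Eif4ebp1, a brake on translation, 64.0, 129, 449.55 and 464 (1.80 and 1.84). Phgdh, the first enzyme of serine synthesis, had 355, 252, 327 and 418 (0.38 and 0.73).

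In Gdf10/Cytl1-positive cells the ATF4 list had 5 of 18 higher (0.45) and 15 of 19 (0.77), beside 0.625% and 1.39% of all tested genes of that class, with Asns at 1.38 and 2.38 and Nupr1 at 2.79 and 4.35. Cells that met the rule after thinning to 3000 UMIs, most of them not members at full depth, had an ATF4 median of 0.82 for the label Glut3f/+. Their Asns ratios were 1.52 and 2.14. Both classes were thus higher in the Cre-labelled libraries, and whether members were more so was not tested.

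Cytosolic tRNA synthetases, which load amino acids onto tRNA, had 6 of 19 higher (0.41) and 9 of 19 (0.56), and 0 lower. Sars, for serine, had 68.5, 54.9, 193 and 203 CPM (1.81 and 1.89), and Gars, for glycine, 95.9, 90.1, 176 and 192 (0.97 and 1.09). The other genes of the 10 highest were Mt1, a metal-binding metallothionein, with 6.09, 37.3, 350.5 and 181 CPM (3.23 and 2.28), 2410006H16Rik with 277, 375, 1018 and 1122 (1.44 and 1.58), and Cnn2, an actin-binding calponin, with 79.2, 40.4, 104 and 138 (1.37 and 1.77). After thinning, 2410006H16Rik was at 0.69 for the label Glut3f/+ and Cnn2 at 0.66 for the label DCKO. With Gdf10, Cytl1 and Gdf5 of 0, Cnn2 was at 0.44 for the label Glut3f/+, under the fold, and Mt1 at 2.52 and 1.63.

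Genes of the unfolded protein response parted the Cre-labelled libraries. None of 18 tested was past the fold for the label Glut3f/+, at a median of 0.10 (-0.004 by the mean of CPM over cells and 0.34 after thinning), while 12 of 18 were higher for the label DCKO, at 0.76 (1.11 after thinning). Hspa5, the main chaperone of the endoplasmic reticulum, had 833, 681, 767 and 1207 CPM (0.17 and 0.83). Hsp90b1, its Hsp90, had 1348, 1077, 1071 and 1728 (-0.01 and 0.68), and Calr, calreticulin, 617, 455, 419 and 769 (-0.12 and 0.76). Creld2 had 65.5, 42.5, 56.7 and 152 (0.42 and 1.84), and Sdf2l1 48.7, 33.1, 28.5 and 88.7 (-0.22 and 1.42). The library labelled DCKO was highest in each of these genes, and the E13.5 control lay within 1.5-fold of it in Hspa5, Hsp90b1 and Calr. Of the same list, 12 of 18 genes were also higher in Gdf10/Cytl1-positive cells for the label DCKO (0.88).

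Set directly against each other, without the control, the Cre-labelled libraries differed in these genes. The log2 ratio of the label DCKO over the label Glut3f/+ was 0.65 (0.57 to 0.74) for Hspa5, 0.88 for Calr, 1.42 for Creld2 and 1.64 for Sdf2l1. Asns was at 0.70 (0.53 to 0.86), Nupr1 at 0.62 and Snorc at 0.70. Car9 was at -0.91 (-1.23 to -0.59), Mt1 at -0.96, Gadd45b at -0.84 and Fam162a at -0.55, while Slc2a1 was at -0.12 (-0.22 to -0.03). By list, the share of genes with an interval clear of 0 stands beside 13.7% higher and 11.6% lower of 5243 tested genes, whose median was 0.01. The label DCKO was higher in 13 of 19 genes of the unfolded protein response and lower in 1, Xbp1 at -0.35 (median 0.65). It was higher in 13 of 25 ATF4 targets and lower in 3, with Pycr1 at -0.60 and Aldh1l2 at -0.56 (median 0.28), so that list was mixed. Of 20 HIF targets 0 were higher and 14 lower (median -0.35).

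**Figure D3:**
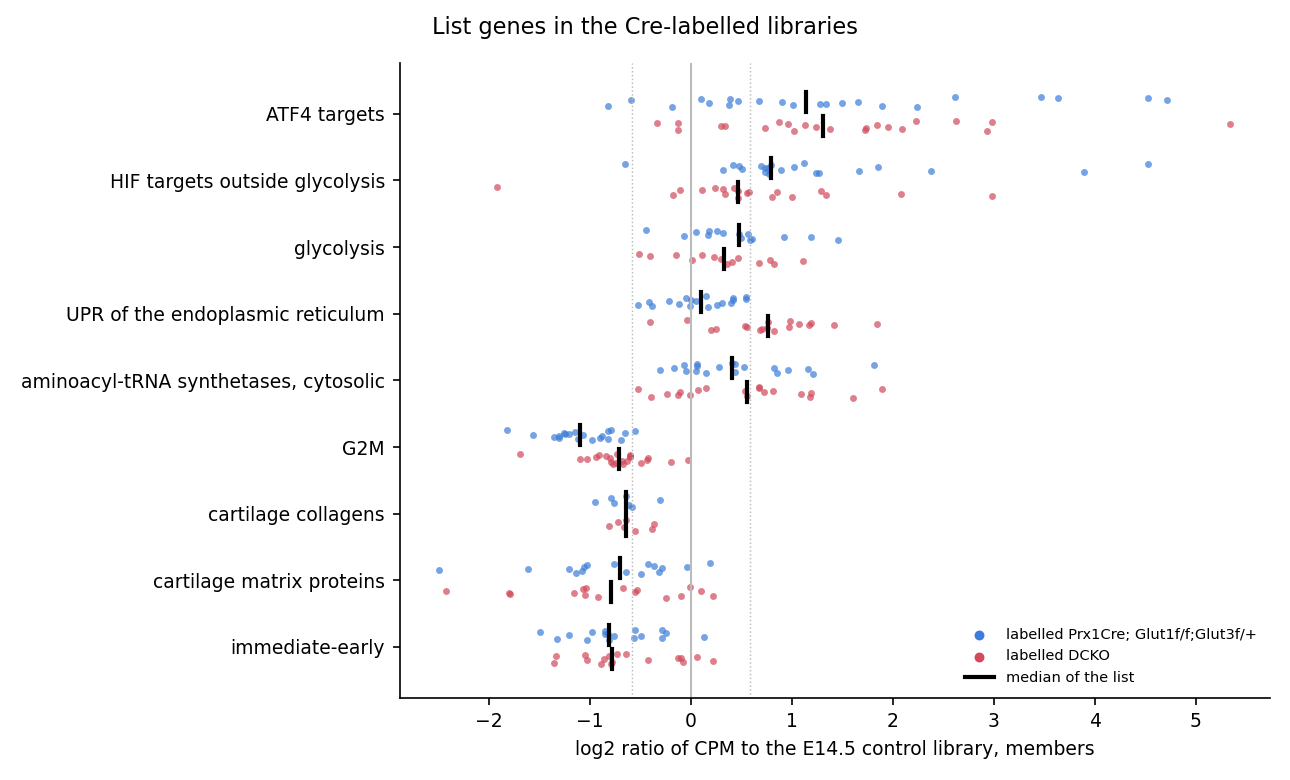
Log2 ratio of CPM to the E14.5 control for the tested genes of 9 lists in members, blue for the label Glut3f/+ and red for the library labelled DCKO, with a black line at each median and dotted lines at 1.5-fold; Acan and Matn1 are left out of the matrix proteins. ATF4 targets lie highest (medians 1.15 and 1.31), and the lists of the unfolded protein response part the libraries (0.10 and 0.76).

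Since most tested ATF4 targets were higher in each Cre-labelled library, the promoters of the 10 highest genes were searched. RefSeq sequences of GRCm38.p6 were used, from 250 bases before to 50 after the gene start. Letters TGATGNAA, a form of the amino acid response element bound by ATF4 with a partner, were sought on both strands. Of all genes 1219 of 27025 held a match (4.51%, or 3.97% of 32851 promoters). Of the 92 genes higher in both Cre-labelled libraries 71 had a promoter in the table and 12 of those held a match (16.9%), and of the 412 lower genes 331 had a promoter and 12 held one (3.63%). TACGTG, a form of the hypoxia response element, was held by 5 of 71 (7.04%), 17 of 331 (5.14%) and 993 of 27025 genes (3.67%). Among the 10 highest genes 9 had a promoter and 2 held TGATGNAA, Asns and Nupr1, which are shown because they are the named genes with a match. They are given 5′ to 3′ on the strand of the gene, minus in both, as chr6:7693160-7693459 and chr7:126625421-126625720, with the match in capitals. That of Nupr1 lies on the opposite strand and so reads TTGCATCA. A match is a description of letters and says nothing about binding. The 92 genes include ATF4 targets such as Asns and Nupr1, whose levels prompted the search, so their share is no independent check. All genes with a promoter, unlike the 92, did not have to reach a mean of 20 CPM.
Asns: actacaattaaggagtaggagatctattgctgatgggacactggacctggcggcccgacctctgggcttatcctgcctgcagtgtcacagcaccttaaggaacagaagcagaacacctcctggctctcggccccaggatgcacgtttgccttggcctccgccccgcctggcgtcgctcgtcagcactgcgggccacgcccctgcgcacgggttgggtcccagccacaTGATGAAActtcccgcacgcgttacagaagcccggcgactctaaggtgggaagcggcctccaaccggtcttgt
Nupr1: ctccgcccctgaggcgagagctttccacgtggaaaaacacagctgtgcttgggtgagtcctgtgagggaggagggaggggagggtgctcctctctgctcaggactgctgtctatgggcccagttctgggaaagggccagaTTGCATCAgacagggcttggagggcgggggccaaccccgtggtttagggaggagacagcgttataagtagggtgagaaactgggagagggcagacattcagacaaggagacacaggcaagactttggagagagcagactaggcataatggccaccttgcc

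Mitochondrial RNA was lower in part. The 13 genes of the mitochondrial genome had 3 lower for the label Glut3f/+ (median -0.24) and 7 for the label DCKO (-0.63), against 1 and 5 lower of 13 in Gdf10/Cytl1-positive cells. The genes past the fold included subunits of complex I. Thus mt-Nd1 had 1282, 1403, 870.1 and 598 CPM (-0.69 and -1.23) and mt-Nd3 474, 479, 402 and 177 (-0.25 and -1.44), while mt-Co1 of complex IV had 3203, 2623, 3042 and 3289 (0.21 and 0.33). The nuclear genes of the respiratory chain had 0 and 3 of 75 past the fold, at -0.19 and -0.15, the latter 0.06 with TMM. Median mitochondrial shares of members were 2.50%, 1.91%, 1.76% and 1.75%.

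Immediate-early genes were lower in both Cre-labelled libraries than in the E14.5 control, in 10 of 17 (-0.81) and 11 of 17 (-0.78). Jun had ratios of -1.32 and -1.36 and Fos -0.81 and -0.79, with all libraries but the E14.5 control near each other. Klf2 had 621, 1116, 619 and 1046 CPM (-0.85 and -0.09). Thinning brought the medians to -0.34 and -0.39, and in Gdf10/Cytl1-positive cells the label Glut3f/+ had 0 of 17 past the fold (-0.11) and the label DCKO 1 higher and 0 lower of 17 (-0.05).

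Genes of division were lower. The G2M list had 19 of 20 lower for the label Glut3f/+ (median -1.09) and 16 of 22 for the label DCKO (-0.71), and the S phase list 7 of 20 in each (-0.42 and -0.36). Hmgb2 had 1267, 1084, 613 and 716 CPM (-0.82 and -0.60), Top2a, which untangles DNA, 323, 240.25, 149 and 141 (-0.69 and -0.77), and Cenpa, the histone of the centromere, 195, 153, 52.0 and 75.3 (-1.56 and -1.03). Cdkn1a, the inhibitor p21, was higher, at 1.11 and 1.37, and Ccnd1, cyclin D1, lower, at -0.78 and -0.87. Cdkn1c, the inhibitor p57 of chondrocytes, had 4291.5, 4231, 3144 and 2987 CPM (-0.43 and -0.50). In Gdf10/Cytl1-positive cells G2M genes had 0 of 23 and 2 of 23 lower, at -0.32 and -0.40. The cells that met the rule after thinning to 3000 UMIs had a G2M median of -0.73 for the label Glut3f/+.

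Transcription factors and signals split. Chondrogenic factors had 1 of 18 higher and 5 lower (-0.08) for the label Glut3f/+ and 1 of 17 higher and 8 lower (-0.54) for the label DCKO. Mef2c was higher in both (1.25 and 1.17) and Runx2 lower (-1.58 and -0.93), although Runx2 had ratios of 0.53 and 0.75 in Gdf10/Cytl1-positive cells. Prehypertrophic genes had 2 of 5 higher and 2 lower in each, at -0.38 and 0.22. Growth plate signalling had 2 of 23 higher and 2 lower (-0.11) and 2 of 21 higher and 2 lower (-0.07), with Wnt5a at 56.3, 48.7, 29.0 and 18.1 CPM (-0.75 and -1.43) and Bmp5 at 38.1, 41.4, 15.1 and 22.1 (-1.45 and -0.91). Nog, the gene past the fold in members over Gdf10/Cytl1-positive cells, was at 0.77 and 0.03. It did not set members apart from Ihh/Panx3/Col10a1-positive cells, where its ratios by library were -0.55, -0.63, 0.57 and 0.55. Epiphyseal genes without those of the rule had 1 and 0 of 4 past the fold (0.33 and 0.13) and interzone genes 2 and 1 of 4 (0.29 and -0.10), with Wnt4 higher in both at 1.03 and 1.43.

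Markers of other cell types moved with the comparison, and their part in it was not tested. The fibroblast list had 5 of 6 lower in each Cre-labelled library (-1.06 and -1.11), with Col1a2 at 221, 634, 296 and 273 CPM. Osteogenic and perichondrial genes summed to 132, 93.2, 29.0 and 35.1 CPM with Runx2 first, of 7 genes 4, 5, 6 and 5 being detected. Muscle genes summed to 113, 2.07, 75.1 and 2.17, with 86.5% of the first and 55.3% of the third from 1 barcode each. Tendon genes summed to 27.4, 47.6, 29.4 and 13.034, endothelial genes to 22.8, 28.0, 9.65 and 15.9 with Egfl7 first and Cdh5 at 0 in all, and macrophage genes to 3.05, 5.18, 1.26 and 16.7. Glial or neuronal genes summed to 39.6, 20.7, 44.9 and 40.2, epidermal genes to 6.09, 13.462, 4.20 and 4.34 with Krt5 and Krt14 at 0, and mural genes to 111, 176, 174 and 182, nearly all of it Cspg4, which chondrocytes also make. Without barcodes rich in hemoglobin, chosen for removal after their values were seen, the counts were 290 higher and 602 lower with age, 189 and 663 for the label Glut3f/+, and 223 and 710 for the label DCKO.

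The same comparisons in Gdf10/Cytl1-positive cells, which were many more, gave 269 higher (4.60%) and 410 lower (7.01%) of 5850 genes with age, 35 (0.625%) and 47 (0.840%) of 5598 for the label Glut3f/+, and 77 (1.39%) and 224 (4.05%) of 5529 for the label DCKO. The counts of list genes in that class given above stand beside these shares. Members therefore had more genes past the fold in each comparison of a Cre-labelled library than these neighbours, at far fewer UMIs, which widen the scatter of a ratio. Whether the classes differ beyond that was not tested.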

How the data were processed

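Per the file headers, the deposited UMI counts were made by the authors with Cell Ranger 6.1.2, and their notes name the mm10 build and Seurat 3. The counts were used as deposited. The filter kept barcodes in which 200 to 6000 genes were seen and mitochondrial UMIs made up no more than 10%. UMIs of the cells of a class were summed per library. Ratios carry exact conditional 95% intervals, shares Clopper-Pearson intervals and levels Poisson intervals. A gene with 0 UMIs was set to a floor of 3, and no ratio is given where both sides were at or under it. The tools were Python 3.11.15 with numpy 2.4.6, scipy 1.17.1 and pandas 2.3.3, and R 4.3.3 with edgeR 4.0.16 for TMM factors. No doublets were called. As an alternative, barcodes with 2 or more UMIs of muscle, endothelial, macrophage or neural markers were left out of members and neighbours but stayed in the number of kept cells. Named genes were those of the rule and the markers, Slc2a1 and Slc2a3, of each list the 4 of highest mean CPM and the 2 that moved furthest, and per comparison the 10 highest and 10 lowest at 50 CPM or more, without sex-linked and erythroid genes. Other genes were named after their values were seen. The members and lists were chosen with earlier results of these data known. Gene identifiers matched GENCODE M21 for 32158 of 32285 entries.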

Additional observations from a re-analysis of the deposited data

Results flagged for a closer look

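Slc1a3, which encodes a glutamate transporter, was higher in members of the library labelled DCKO than in those of the E14.5 control, at 31.86 against 13.462 CPM, a log2 ratio of 1.24. In Gdf10/Cytl1-positive cells the same comparison went the other way, at 23.586 against 43.348 CPM, a log2 ratio of -0.88. It stands here because the direction differs between the classes, and the difference was not tested.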

How the results depend on the processing

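No paired analysis was possible because each condition is 1 library. Under 11 other settings, 2 of them chosen after the data were seen, 1578 of 1848 log2 ratios and medians stayed the same, 260 moved and 10 reversed; no cause was tested. A value counts as reversed only where a called ratio or a median past 1.5-fold changed its sign, and 86 values changed sign in all. Of 14 settings, 3 bear on counts of genes only. The share of members was 1.08%, 1.58%, 3.02% and 4.12% with Acan and Matn1 of 2 or more, 0.249%, 0.785%, 1.51% and 1.77% with 5 or more, and 0.177%, 0.365%, 0.817% and 1.203% with Gdf10, Cytl1 and Gdf5 of 0. It was 4.84%, 6.24% and 8.18% at E14.5 after thinning to 3000 UMIs. With barcodes of 5000 to 15000 UMIs, a range chosen after shallow members were seen, it was 0.442%, 0.849%, 1.76% and 2.2999%. The shares for that range are of all kept cells and not of the kept cells within it. Genes past the fold against Gdf10/Cytl1-positive cells were 14 with Acan and Matn1 of 5 or more, 27 with Gdf10, Cytl1 and Gdf5 of 0, 20 at 10 CPM, 4 at 50 CPM and 2 at a fold of 2. With age they were 582 with Gdf10, Cytl1 and Gdf5 of 0, 592 after thinning, 520 at 50 CPM and 383 at a fold of 2. For the label Glut3f/+ they were 525 after thinning, 375 at 50 CPM and 281 at a fold of 2, and for the label DCKO 399 and 309 at the last of these. Against Ihh/Panx3/Col10a1-positive cells they were 165 and 121, and against Matn1-low cells 78 and 50. With Gdf10, Cytl1 and Gdf5 of 0, Gmcl1 reversed to 0.0797 for the label Glut3f/+, and Hist1h2ap to 0.13 and, for the label DCKO, 0.28. After thinning, Gadd45b reversed to -0.21 and Idi1 to -0.37 with age, Gmcl1 to 0.63 and Neat1 to 0.0457 for the label Glut3f/+, and Gmcl1 to 0.54 for the label DCKO. Without barcodes holding markers of another lineage, Gmcl1 reversed to 0.12 for the label Glut3f/+ and 1.09 for the label DCKO.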
